A study of Mus musculus with 20 samples.

Results

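This account sets infarcted mouse heart tissue directly against reperfused mouse heart tissue, without subtracting the sham-operated hearts of either. It uses 8 of the 20 libraries of the series, chosen by their labels: 4 short-read libraries of myocardial infarction (MI) and 4 of ischemia-reperfusion (IR). The MI hearts were taken 72 h after surgery, and their tissue held the infarct core together with the regions around it. The IR hearts underwent 40 min of what the labels call "LCA", an abbreviation that the labels leave unexplained, followed by 72 h of reperfusion, in which blood flow returns, and their tissue held the core alone. The sham groups, MISham and IRSham with 4 libraries each, were sampled from the same regions as MI and IR. Kind of injury, region sampled and series of operations therefore differ together between MI and IR and cannot be told apart. Poly(A) RNA was measured in every library; the labels give no strain, age or sex, and do not tell whether libraries stand for separate animals, so that each p-value sets a difference against the spread among these libraries only.

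After a coronary artery closes for good, the cells beyond it are left without oxygen, die and are cleared by neutrophils and macrophages, while endothelial cells and fibroblasts at the margin build vessels and scar. When flow returns, oxygen is restored to the same bed, and dead muscle, leaking vessels and a fast influx of leukocytes are found together. Cells short of oxygen stabilise the transcription factor HIF-1, which turns on glucose transporters, glycolytic enzymes, vessel growth factors and prolyl hydroxylases. Tissue stress also acts through the unfolded protein response, which matches the folding capacity of the endoplasmic reticulum to its load, and through the p53 and FoxO factors.

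Libraries held 57.2 to 63.1 M counts in MI and 26.2 to 31.8 M in IR, beside 24.3 to 27.6 M in MISham and 25.5 to 29.8 M in IRSham. The tissue carried the genes of heart muscle in every library: the 20 sarcomere genes summed to 20909 to 37229.5 counts per M (CPM, on the TMM scale) in MI and 24549 to 41536 CPM in IR, against 90887 to 108913 CPM in MISham and 97148 to 104579 CPM in IRSham. Mitochondrially encoded genes took 2.42 ± 0.390% of counts in MI and 2.59 ± 0.767% in IR (SD, n = 4 each). This difference did not pass (two-sided exact permutation test, p = 0.771). The first principal component of the 8 libraries held 51.2% of the variance, with MI at 30.2 to 33.9 and IR at -37.8 to -20.7. IR replicate 3, at -20.7, lay nearest to MI.

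The 2 deposited quantifications of the same libraries were tested side by side. Gene counts were tested with edgeR. TPM (transcript abundance scaled for length and to a fixed sum) was added over each gene's annotated transcripts and tested with limma. Transcripts that matched no annotated gene were left out, and the matched ones held 73.8 to 78.4% of TPM in MI and IR. In counts, 823 of 20056 genes were higher in MI (4.1%) and 348 were lower (1.74%) at an adjusted p under 0.05. Among 14531 protein-coding genes, 351 were higher (2.42%) and 309 were lower (2.13%). Summed TPM gave far fewer calls, with 8 of 14754 genes higher (0.0542%) and 7 lower (0.0474%), beside 1954 at an unadjusted p under 0.05. Protein-coding genes called in both were 0 higher (0.0%) and 2 lower (0.0138%), Sesn1 and Abca8a. Counts had 4210 genes at an unadjusted p under 0.05. When the spread was taken from all 16 short-read libraries in both fits, 69 protein-coding genes were higher and 48 lower. That choice was made after the data were seen. In earlier results of these data the IR libraries spread more than the shams, so a spread shared with shams can understate theirs. Of the count calls that TPM also tested, 313 of 315 higher and 270 of 287 lower had the same sign in TPM.

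The genes below are therefore described mainly by a wider rule, chosen after the data were seen. A protein-coding gene is called concordant here when edgeR called it in counts and its TPM change had the same sign and at least 0.5 of the log2 size. All 4 MI libraries also had to lie apart from all 4 IR libraries in CPM and in TPM. Where groups of a concordant gene are said below not to overlap, this follows from the rule and adds no support. By this rule 212 of 14531 genes were higher in MI (1.46%) and 132 were lower (0.908%), of which 26 and 18 changed at least 2-fold in counts. These numbers rest on p-values adjusted over all genes, pseudogenes included. With protein-coding genes tested alone, 136 were concordant and higher and 92 lower. The numbers of concordant genes also depended on single libraries. Without IR replicate 3 they were 458 higher and 421 lower, and 65 higher and 48 lower genes were called in both fits. Without MI replicate 4 they were 64 and 53, without MI replicate 1 71 and 56, and without MI replicate 2 94 higher. Without IR replicates 1, 2 and 4 in turn, 138, 127 and 120 genes were higher. Of the 344 concordant genes, 331 were still concordant without IR replicate 3 and 111 without MI replicate 4. IR replicate 3 was the IR library nearest to MI for 153 of the 212 higher genes and 76 of the 132 lower ones. Of 86 named genes called in counts, 37 kept the call in all 8 fits with 1 library left out. The call was lost in 1 to 3 of these fits for 10 genes and in 4 or more for 39. Igfbp3, Cdh5, Pkm, Inhbb, Adamts4, Trem1, Ccl24, Clec3b, Selenop and Lum kept it in only 1 of the 8.

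**Figure D1:**
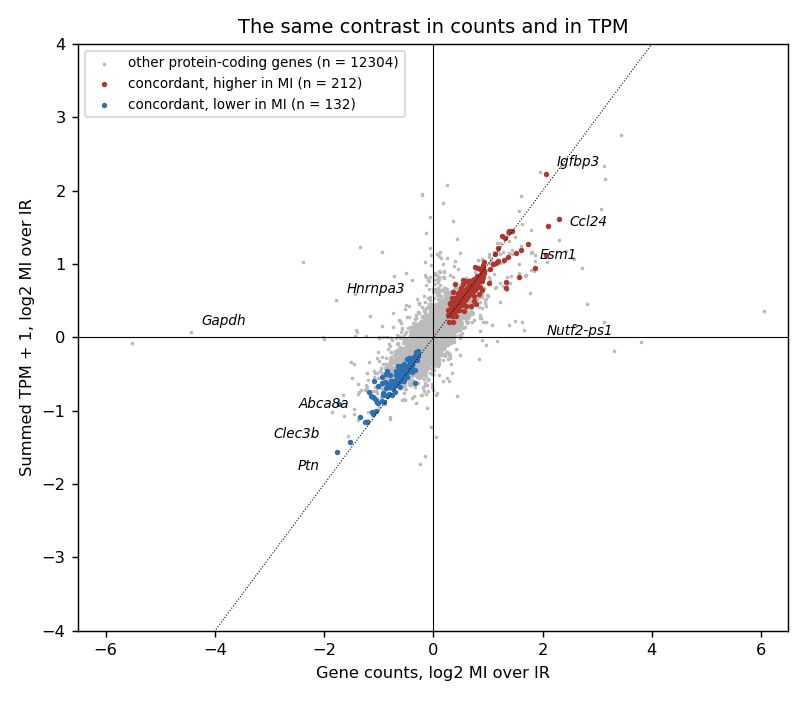
Log2 fold change MI over IR of protein-coding genes in gene counts (horizontal axis) and in summed TPM + 1 (vertical axis), 1 point per gene. Red points are the 212 concordant genes higher in MI, blue points the 132 lower in MI, grey points all other genes, and the dotted line marks equal values. Igfbp3 and Ptn lie near the line, while Gapdh and Nutf2-ps1 lie far along the horizontal axis near 0 in TPM.

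Sesn1 and Abca8a were the genes called lower in MI in both fits. Sesn1 encodes sestrin 1, a p53- and FoxO-induced protein that restrains mTORC1 signalling. It had 54.6, 46.6, 58.7 and 52.1 CPM in MI replicates 1 to 4, against 107, 77, 91 and 75.5 CPM in IR replicates 1 to 4. The groups did not overlap, and the log2 fold change was -0.74 ± 0.11 in counts (SE; edgeR adjusted p = 0.00241) and -0.69 in summed TPM (limma adjusted p = 0.0314). Both injured groups lay below the shams, at 185 ± 30.7 CPM in MISham and 194 ± 20.6 CPM in IRSham (SD, n = 4 each). Abca8a, a lipid transporter of the ATP-binding cassette family that cardiac fibroblasts express, had 40.8, 58.9, 39.1 and 46.3 CPM in MI, against 114, 81.8, 70.3 and 101 CPM in IR. Its log2 fold change was -1.01 ± 0.17 in counts (edgeR adjusted p = 0.0071) and -0.89 in TPM (limma adjusted p = 0.00745). The shams had 125 ± 10.5 CPM in MISham and 133 ± 13.2 CPM in IRSham. With each of the 8 libraries left out in turn, edgeR still called Sesn1 and Abca8a. In TPM the call of Sesn1 was lost in 6 of those 8 fits (highest limma adjusted p = 0.139). That of Abca8a was lost in 2 of them (highest limma adjusted p = 0.0573). Without MI replicate 1 or MI replicate 2, 0 genes were called lower in both quantifications.

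Of 23 genes of glucose uptake, glycolysis and lactate export, 6 were concordant and higher in MI and 0 lower. In counts alone, 7 were called higher and 1 lower. Gapdh, lower in counts but not in TPM, is described further on. The median log2 fold change of the 23 genes was 0.19 in counts, against -0.02 over all 14531 genes. Their sums overlapped, at 7654 to 9185 CPM in MI and 8527 to 10128 CPM in IR. Over all protein-coding genes 1.46% were concordant and higher and 0.908% lower, the shares to set beside this and each later list. Slc2a1, the glucose transporter GLUT1, had 84.9, 65.8, 82.6 and 84.1 CPM in MI, against 27.5, 40.4, 49 and 47.8 CPM in IR. The groups did not overlap, and the log2 fold change was 0.93 ± 0.17 (edgeR adjusted p = 0.0131). Slc16a3, the lactate exporter MCT4, had 121, 98.2, 136 and 111 CPM in MI, against 32.9, 43.8, 65 and 61.4 CPM in IR, a log2 fold change of 1.18 ± 0.21 (edgeR adjusted p = 0.0114). In the shams Slc2a1 averaged 24.5 ± 2.9 CPM in MISham and 29.2 ± 4.61 CPM in IRSham, and Slc16a3 averaged 19.6 ± 17.9 CPM in MISham and 18.5 ± 10.1 CPM in IRSham. The glycolytic enzymes changed less: Eno1, enolase, by 0.51 ± 0.11, Pkm, pyruvate kinase, by 0.38 ± 0.10, Pfkl, a phosphofructokinase subunit, by 0.36 ± 0.09, and Pgk1, phosphoglycerate kinase, by 0.32 ± 0.08 (edgeR adjusted p of 0.0195, 0.0484, 0.0338 and 0.044 in that order). Leaving out any 1 of the 8 libraries did not end the count calls of Slc2a1 and Slc16a3. For the rest, the highest edgeR adjusted p in these fits was 0.0626 for Eno1 (without MI replicate 1), 0.141 for Pkm (without MI replicate 1), 0.105 for Pfkl (without MI replicate 4) and 0.139 for Pgk1 (without MI replicate 4). In the edgeR fit of all 16 short-read libraries, calls were lost for Slc16a3 (0.266), the adjusted p in brackets. The threshold was also missed by Slc16a3 and Slc2a1 with no filter on low counts and Pfkl, Pgk1 and Pkm with protein-coding genes alone (edgeR adjusted p from 0.0519 to 0.0619). A block for replicate number ended the calls of Pkm and Pgk1 (edgeR adjusted p of 0.0617 and 0.0629).

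Of 18 hypoxia-inducible genes 2 were concordant and higher, Slc2a1 and P4ha1, and 0 were lower; the median was 0.29, beside 0.12 between the shams. P4ha1, a subunit of the oxygen-dependent prolyl hydroxylase that matures collagen, had 219, 206, 189 and 201 CPM in MI, against 113, 140.3, 138 and 151 CPM in IR. It was higher in every MI library, with a log2 fold change of 0.57 ± 0.10 (edgeR adjusted p = 0.00652). Hilpda, a lipid droplet protein that inhibits lipolysis, had 9.64, 11.3, 16.6 and 10 CPM in MI, against 5.95, 6.88, 6.27 and 6.9 CPM in IR, a change of 0.85 ± 0.17 (edgeR adjusted p = 0.0168). Stc1, the secreted glycoprotein stanniocalcin 1, averaged 9.99 ± 0.667 CPM in MI and 5.33 ± 1.76 CPM in IR (log2 0.89 ± 0.21, edgeR adjusted p = 0.0312). Hilpda and Stc1 belong to no list here and were chosen after their values were seen. Ero1l, an oxidase of the endoplasmic reticulum, was called in counts (0.60 ± 0.14, edgeR adjusted p = 0.033) with a TPM change of 0.27, too small to count as concordant. Hif1a, the oxygen-regulated subunit of HIF-1, averaged 239.9 ± 26.1 CPM in MI and 191 ± 7.88 CPM in IR and did not pass (log2 0.31 ± 0.09, edgeR adjusted p = 0.0623). Count calls that held in all 8 fits with 1 library left out were those of P4ha1 and Hilpda. Elsewhere at least 1 of these fits ended the call, and the highest edgeR adjusted p was 0.0993 for Stc1 (without MI replicate 4) and 0.0921 for Ero1l (without MI replicate 1). Calls were also lost for Ero1l and Stc1 with protein-coding genes alone (edgeR adjusted p from 0.0505 to 0.0529).

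Because HIF-1 is known to bind the letters ACGTG or GCGTG, the start regions of these glucose, lactate and hypoxia genes were searched for them on both strands. RefSeq windows (GRCm38.p6, 250 bases before to 50 after a gene's start) were found for 8 of the 10 genes looked up. ACGTG or GCGTG was present in 11 of their 12 windows, against 43.8% of all 32851 windows; CACGTG, the E-box that contains ACGTG, was in 0 of the 12, against 7.15% of all. Some windows of Eno1 and of Hilpda overlap. The same letters, ACGTG or GCGTG, were in 7 of the 8 windows of 5 circadian and glucocorticoid-target genes described further on, all with lower values in MI. The windows of Slc2a1 (chr4:119108495-119108794, plus strand) and P4ha1 (chr10:59323046-59323345, plus strand) are shown 5′ to 3′ because these are the concordant genes of the hypoxia list, with the matches, on either strand, in capitals.
Slc2a1: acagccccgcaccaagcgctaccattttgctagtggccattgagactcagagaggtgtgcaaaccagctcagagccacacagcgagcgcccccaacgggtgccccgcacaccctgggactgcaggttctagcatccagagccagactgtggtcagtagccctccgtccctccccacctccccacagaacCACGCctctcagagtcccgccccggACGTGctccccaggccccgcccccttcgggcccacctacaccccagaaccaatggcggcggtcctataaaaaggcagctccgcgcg
P4ha1: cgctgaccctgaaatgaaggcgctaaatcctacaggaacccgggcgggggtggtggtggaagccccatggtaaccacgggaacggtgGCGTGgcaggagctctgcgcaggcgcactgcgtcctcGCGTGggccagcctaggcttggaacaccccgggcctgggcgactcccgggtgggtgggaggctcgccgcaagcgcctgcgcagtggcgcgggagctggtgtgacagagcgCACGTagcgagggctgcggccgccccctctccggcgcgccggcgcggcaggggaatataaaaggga
Slc2a1 held 2 matches and P4ha1 held 3. A match of letters is a description of the sequence and shows no binding.

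Endothelial genes and the factors of vessel sprouting formed the next group. Of 20 endothelial genes 6 were concordant and higher in MI and 1 was lower, and the median was 0.32, beside -0.00 between the shams. Esm1, the tip-cell proteoglycan endocan, had 12.1, 7.17, 7.04 and 7.36 CPM in MI, against 1.48, 1.92, 3.95 and 2.57 CPM in IR. The lowest MI library lay above the highest IR library, and the log2 fold change was 1.74 ± 0.30 (edgeR adjusted p = 0.00675). Apln, the peptide apelin of sprouting endothelium, had 139.9, 96.6, 81.6 and 114 CPM in MI, against 28, 25.7, 57.9 and 44.9 CPM in IR (log2 1.45 ± 0.28, edgeR adjusted p = 0.0233). Outside the list, Pgf, placental growth factor, a ligand of the VEGF receptor Flt1, averaged 36.3 ± 6.38 CPM in MI and 15 ± 6.03 CPM in IR (log2 1.26 ± 0.28, edgeR adjusted p = 0.0331). In bulk tissue, fewer cells of a type and less RNA per cell cannot be told apart.

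The genes that define endothelial identity changed by smaller amounts. Cdh5, VE-cadherin, had 516, 486, 454 and 483 CPM in MI, against 300.5, 280.4, 442 and 320.4 CPM in IR, a log2 fold change of 0.51 ± 0.13 (edgeR adjusted p = 0.0482). IR replicate 3 came close to the MI libraries in this gene. Pecam1, the junctional protein CD31, changed by 0.47 ± 0.11 and Emcn, endomucin, by 0.48 ± 0.09 (edgeR adjusted p of 0.0367 and 0.00696). Plvap, which forms the diaphragms of fenestrated capillaries, changed by 0.44 ± 0.11 (edgeR adjusted p = 0.0453). Aqp1, the water channel, was the gene lower in MI, at 127, 140.3, 121 and 142 CPM in MI against 225, 148, 176 and 176 CPM in IR (log2 -0.47 ± 0.11, edgeR adjusted p = 0.0385). Outside the list, and chosen after their values were seen, were Flt4, VEGF receptor 3 (log2 0.80 ± 0.14, edgeR adjusted p = 0.0077), and Nos3, endothelial nitric oxide synthase (log2 0.65 ± 0.14, edgeR adjusted p = 0.027). The edgeR calls of Esm1, Emcn and Flt4 held whichever 1 of the 8 libraries was left out. The other calls were lost in at least 1 of these fits, where the highest edgeR adjusted p was 0.0704 for Apln (without IR replicate 1), 0.0872 for Pgf (without IR replicate 2), 0.136 for Cdh5 (without MI replicate 1), 0.105 for Pecam1 (without MI replicate 1), 0.112 for Plvap (without IR replicate 1), 0.131 for Aqp1 (without MI replicate 1) and 0.091 for Nos3 (without MI replicate 4). Fitting all 16 short-read libraries in edgeR ended the calls of Aqp1 (0.056) and Plvap (0.0943), the adjusted p in brackets. Other settings ended the calls of Apln and Pgf with no filter on low counts, Aqp1, Cdh5, Nos3, Pecam1 and Plvap with protein-coding genes alone, Aqp1, Cdh5 and Plvap with a minimum mean of 1 CPM and Plvap with MI thinned to the depth of IR (edgeR adjusted p from 0.0507 to 0.121). Apln, Pgf and Aqp1 also lost the call with a block for replicate number (edgeR adjusted p of 0.0579, 0.0802 and 0.0502).

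Igfbp3 encodes a secreted binding protein of insulin-like growth factors. It had 339.7, 229.8, 250.3 and 305 CPM in MI, against 39.2, 35, 132 and 59.6 CPM in IR. IR replicate 3 stood above the other IR libraries and below every MI library. The log2 fold change was 2.06 ± 0.43 in counts (edgeR adjusted p = 0.0312) and 2.23 in TPM (limma adjusted p = 0.0646). The shams had 39.2 ± 2.91 CPM in MISham and 33.7 ± 4.43 CPM in IRSham, a level that IR replicates 1 and 2 did not clearly exceed. This call was kept in only 1 of the 8 fits with 1 library left out. The highest edgeR adjusted p in these fits was 0.0914 for Igfbp3 (without IR replicate 1). The threshold was also missed by Igfbp3 with no filter on low counts (edgeR adjusted p = 0.0913).

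Ligands of the TGF-β family and matrix proteases were counted next. Of 19 TGF-β family genes 2 were concordant and higher and 0 lower, with a median of 0.08. Inhba, the activin βA subunit, had 63.8, 48.5, 52.1 and 58.2 CPM in MI, against 17, 24.3, 28.1 and 33 CPM in IR, a log2 fold change of 1.10 ± 0.18 (edgeR adjusted p = 0.00728). Inhbb, the activin βB subunit, had 74, 70.2, 58.6 and 65.4 CPM in MI, against 16.6, 18.3, 45.9 and 25.8 CPM in IR (log2 1.31 ± 0.30, edgeR adjusted p = 0.0433). Among 24 matrix proteases and their inhibitors 4 were concordant and higher and 0 lower, and the median was 0.33, against -0.25 between the shams. These were Adamts4, a proteoglycan-cleaving protease (log2 0.91 ± 0.21), Adamts9 of the same family (0.78 ± 0.17), Timp1, a metalloproteinase inhibitor (0.86 ± 0.17), and Plau, urokinase (0.84 ± 0.17), with edgeR adjusted p from 0.0185 (Timp1) to 0.0411 (Adamts4). Timp1 had 417, 367, 465 and 396 CPM in MI, against 151, 213, 289 and 242 CPM in IR, and the groups did not overlap. Plat, the tissue plasminogen activator, joined Plau and C5ar1 as 3 of 23 complement and coagulation regulators that were concordant and higher (Plat log2 0.41 ± 0.09, edgeR adjusted p = 0.0254). Timp2 went the other way in counts, at 244 ± 19.5 CPM in MI and 382 ± 75.1 CPM in IR (log2 -0.66 ± 0.14, edgeR adjusted p = 0.0176), but its libraries overlapped in TPM. Leaving out any 1 of the 8 libraries did not end the count calls of Inhba. For the rest, the highest edgeR adjusted p in these fits was 0.104 for Inhbb (without IR replicate 4), 0.0962 for Adamts4 (without MI replicate 1), 0.0811 for Adamts9 (without IR replicate 1), 0.0501 for Timp1 (without MI replicate 1), 0.0512 for Plau (without MI replicate 2), 0.0878 for Plat (without MI replicate 4) and 0.0771 for Timp2 (without MI replicate 1). With the spread taken from all 16 short-read libraries, edgeR no longer called Adamts4 (0.145), Inhba (0.0619) and Timp1 (0.402), the adjusted p in brackets. Calls were also lost for Adamts4, Adamts9, Inhbb, Plau and Timp1 with no filter on low counts and Adamts4 and Inhbb with protein-coding genes alone (edgeR adjusted p from 0.0525 to 0.149). Inhbb and Plau lost the call with a block for replicate number too (edgeR adjusted p of 0.0692 and 0.0533).

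**Figure D2:**
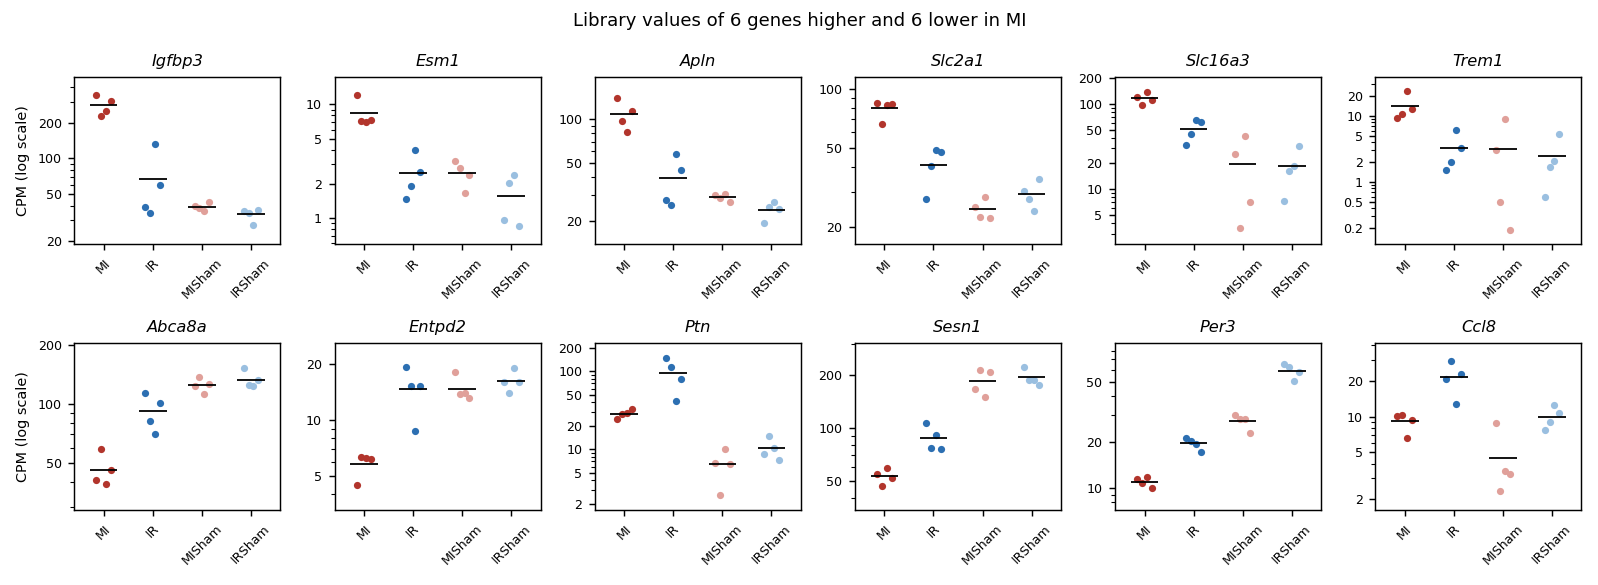
TMM-scaled CPM (log scale) of 12 genes in the 4 MI, 4 IR, 4 MISham and 4 IRSham libraries, 1 point per library in replicate order with the group mean as a black line. The top row shows genes higher in MI and the bottom row genes lower in MI. Igfbp3 lies at 229.8 CPM or more in all MI libraries and at 132 CPM in IR replicate 3, its highest IR library.

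Of 28 cytokines and chemokines 3 were concordant and higher and 1 lower, and the median was 0.72, against -0.20 between the shams. Ccl4 had 8.32, 10.7, 9.33 and 11.3 CPM in MI, against 4.23, 5.52, 5.03 and 6.39 CPM in IR (log2 0.88 ± 0.16, edgeR adjusted p = 0.00725), and Ccl3 had 6.74, 9.94, 10.6 and 8.76 CPM in MI, against 5, 5.57, 5.67 and 4.66 CPM in IR (log2 0.77 ± 0.16, edgeR adjusted p = 0.0168). Both are chemokines that attract leukocytes, and neither showed overlap between groups. Ccl9, a mouse chemokine of myeloid cells, changed by 0.62 ± 0.14 (edgeR adjusted p = 0.0283). Trem1, a receptor that amplifies neutrophil and monocyte signals, had 9.23, 10.5, 24 and 12.8 CPM in MI, against 1.51, 1.98, 6.18 and 3.23 CPM in IR (log2 2.11 ± 0.48, edgeR adjusted p = 0.0388). Ccl24, an eosinophil-attracting chemokine, had 1.69, 3.04, 7.45 and 8.58 CPM in MI, against 1.41, 0.446, 1.08 and 1.25 CPM in IR; its MI libraries differed widely from each other (log2 2.30 ± 0.55, edgeR adjusted p = 0.0433). Count calls that held in all 8 fits with 1 library left out were those of Ccl4. Elsewhere at least 1 of these fits ended the call, and the highest edgeR adjusted p was 0.0606 for Ccl3 (without MI replicate 2), 0.0883 for Ccl9 (without MI replicate 4), 0.0943 for Trem1 (without IR replicate 1) and 0.105 for Ccl24 (without MI replicate 4). Fitting all 16 short-read libraries in edgeR ended the calls of Ccl24 (0.111), Ccl3 (0.37), Ccl4 (0.18), Ccl9 (0.452) and Trem1 (0.166), the adjusted p in brackets. Other settings ended the calls of Ccl24 and Trem1 with no filter on low counts and Ccl24 and Trem1 with protein-coding genes alone (edgeR adjusted p from 0.052 to 0.158).

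Ptgs2, the inducible cyclooxygenase, averaged 21.6 ± 5.82 CPM in MI and 8.64 ± 2.68 CPM in IR (log2 1.30 ± 0.26, edgeR adjusted p = 0.0204). Nlrp3, the inflammasome sensor, was the only concordant gene among 24 cell death genes, at 15.4, 17, 27 and 18 CPM in MI against 5.6, 7.44, 10 and 10.4 CPM in IR (log2 1.19 ± 0.23, edgeR adjusted p = 0.0145). Olr1, the receptor of oxidised lipoproteins, changed by 1.33 ± 0.26 (edgeR adjusted p = 0.0114), and C5ar1, the receptor of complement C5a, by 0.55 ± 0.14 (edgeR adjusted p = 0.0471). Itgam, the integrin CD11b of myeloid cells, was the 1 concordant gene among 27 monocyte and macrophage genes (log2 0.47 ± 0.08, edgeR adjusted p = 0.00761), and the median of that list was negative, at -0.41, beside -0.58 between the shams. Of 10 neutrophil genes 0 were called, although all 10 had positive values and the median was 1.41. The 15 genes of that list summed to 203 to 481 CPM in MI and 98.5 to 204 CPM in IR. S100a8, a calcium-binding protein of neutrophils, had 27.8, 35, 103 and 31.6 CPM in MI, against 10.1, 11, 27.4 and 14.9 CPM in IR, with MI replicate 3 far above the rest (log2 1.62 ± 0.52, edgeR adjusted p = 0.123). Arg1, arginase of repair macrophages, had 107, 122, 143 and 134 CPM in MI, against 10.9, 13.1, 68.3 and 36.7 CPM in IR, without overlap but with a wide IR spread (log2 1.95 ± 0.55, edgeR adjusted p = 0.0887). The edgeR calls of Nlrp3, Olr1 and Itgam held whichever 1 of the 8 libraries was left out. The other calls were lost in at least 1 of these fits, where the highest edgeR adjusted p was 0.0618 for Ptgs2 (without IR replicate 2) and 0.116 for C5ar1 (without MI replicate 4). In the edgeR fit of all 16 short-read libraries, calls were lost for C5ar1 (0.37), Itgam (0.466), Nlrp3 (0.0783) and Olr1 (0.189), the adjusted p in brackets. The threshold was also missed by C5ar1 and Ptgs2 with no filter on low counts and C5ar1 with protein-coding genes alone (edgeR adjusted p from 0.0521 to 0.0886).

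Interferon-linked genes had lower values in MI. Of 20 interferon-stimulated genes 1 was concordant and lower (Ifit2), 4 were called lower in counts, and none had a positive log2 fold change; the median was -0.37, and -0.53 between the shams. Ifit2, an antiviral RNA-binding protein, had 42.9, 44.8, 33.2 and 42.1 CPM in MI, against 53.5, 68.8, 58.1 and 62 CPM in IR (log2 -0.59 ± 0.11, edgeR adjusted p = 0.00901). Outside the list, the concordant gene Gbp5, an interferon-induced GTPase, averaged 10.7 ± 0.673 CPM in MI and 19.4 ± 3.67 CPM in IR (log2 -0.87 ± 0.13, edgeR adjusted p = 0.00243). Gbp2 of the same family (-0.58 ± 0.13, edgeR adjusted p = 0.0298) and Cxcl9, an interferon-γ-induced chemokine (-0.84 ± 0.15, edgeR adjusted p = 0.00842), were called in counts, but their libraries overlapped in TPM. Ccl8, a monocyte chemokine, was the 1 concordant cytokine lower in MI, at 10.1, 10.3, 6.6 and 9.41 CPM in MI against 20.9, 29.4, 12.9 and 23.1 CPM in IR (log2 -1.26 ± 0.24, edgeR adjusted p = 0.0139). With each of the 8 libraries left out in turn, edgeR still called Ifit2, Gbp5 and Cxcl9. Calls that did not hold in every such fit had a highest edgeR adjusted p that was 0.0986 for Gbp2 (without MI replicate 1) and 0.0522 for Ccl8 (without MI replicate 4). With the spread taken from all 16 short-read libraries, edgeR no longer called Gbp2 (0.274) and Ifit2 (0.132), the adjusted p in brackets. Calls were also lost for Ccl8 with no filter on low counts and Gbp2 with protein-coding genes alone (edgeR adjusted p from 0.052 to 0.0673).

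Among 19 unfolded protein response genes 4 were concordant and higher in MI and 0 lower, with a median of 0.23 between MI and IR and 0.40 between the shams. Asns, asparagine synthetase, and Trib3, a pseudokinase, both targets of the factor ATF4, changed by 0.91 ± 0.16 and 0.83 ± 0.16 (edgeR adjusted p of 0.00598 and 0.0119), and did not pass between the shams (0.11 ± 0.24 and 0.04 ± 0.21; edgeR adjusted p of 0.886 and 0.964). Asns had 22.5, 22.7, 21.5 and 22.2 CPM in MI, against 8.45, 10.4, 15.6 and 12.1 CPM in IR. Creld2, a chaperone-like protein of the endoplasmic reticulum, had 62.7, 65.1, 61 and 65.5 CPM in MI, against 36.8, 42.7, 46.4 and 40.2 CPM in IR (log2 0.60 ± 0.08, edgeR adjusted p = 0.000896). Its MISham libraries were also above its IRSham libraries, at 33.8 ± 7.32 CPM in MISham and 18.2 ± 1.55 CPM in IRSham (log2 0.93 ± 0.14, edgeR adjusted p = 0.00202). The same held for Manf, a secreted stress factor (MI over IR 0.49 ± 0.13, edgeR adjusted p = 0.0449; MISham over IRSham 1.40 ± 0.22, edgeR adjusted p = 0.0141). Hyou1, a chaperone outside the 4, went the same way (MI over IR 0.53 ± 0.10, edgeR adjusted p = 0.0113; MISham over IRSham 1.18 ± 0.17, edgeR adjusted p = 0.00714). Of 14 heat shock genes 2 were concordant and higher, the small heat shock protein Hspb1 (0.76 ± 0.18) and the mitochondrial co-chaperonin Hspe1 (0.32 ± 0.07), with edgeR adjusted p of 0.0352 and 0.0221. Leaving out any 1 of the 8 libraries did not end the count calls of Asns, Trib3, Creld2 and Hyou1. For the rest, the highest edgeR adjusted p in these fits was 0.111 for Manf (without MI replicate 4), 0.101 for Hspb1 (without MI replicate 4) and 0.0726 for Hspe1 (without MI replicate 4). Fitting all 16 short-read libraries in edgeR ended the calls of Manf (0.104), the adjusted p in brackets. Other settings ended the calls of Hspb1 with no filter on low counts and Hspb1 and Manf with protein-coding genes alone (edgeR adjusted p from 0.0525 to 0.149).

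Of 14 resident fibroblast genes 6 were concordant and lower in MI and 0 higher, and the median was -0.48, beside -0.06 between the shams. Besides Abca8a these were Entpd2, Dpt, Gsn, Dcn and Dpep1. Entpd2, an ectonucleotidase, had 4.49, 6.36, 6.23 and 6.18 CPM in MI, against 19.2, 15.2, 8.77 and 15.3 CPM in IR. Every MI library lay below every IR library, and the log2 fold change was -1.35 ± 0.21 (edgeR adjusted p = 0.00374). Dpt, the matrix protein dermatopontin, had 77.1, 94.9, 103 and 91.4 CPM in MI, against 219, 180.3, 124 and 134 CPM in IR (log2 -0.86 ± 0.17, edgeR adjusted p = 0.0162). Gsn, the actin-severing protein gelsolin, changed by -0.72 ± 0.16, Dcn, the proteoglycan decorin, by -0.54 ± 0.12, and Dpep1, a membrane dipeptidase, by -0.42 ± 0.10 (edgeR adjusted p of 0.0278, 0.0266 and 0.0334 in that order). Lum, the proteoglycan lumican, was called in counts (-0.78 ± 0.18, edgeR adjusted p = 0.038) but its libraries overlapped in TPM. The fibrillar collagen and myofibroblast list did not follow: 1 of its 25 genes was concordant and lower, Thbs2, a matricellular protein (-0.54 ± 0.10, edgeR adjusted p = 0.0107), and its median was -0.14. Count calls that held in all 8 fits with 1 library left out were those of Entpd2. Elsewhere at least 1 of these fits ended the call, and the highest edgeR adjusted p was 0.069 for Dpt (without MI replicate 4), 0.104 for Gsn (without MI replicate 1), 0.109 for Dcn (without MI replicate 1), 0.11 for Dpep1 (without MI replicate 4), 0.126 for Lum (without MI replicate 1) and 0.0584 for Thbs2 (without MI replicate 4). The threshold was also missed by Dpt, Gsn and Lum with no filter on low counts and Dcn, Dpep1, Gsn and Lum with protein-coding genes alone (edgeR adjusted p from 0.0538 to 0.16). A block for replicate number ended the calls of Dcn, Dpep1 and Lum (edgeR adjusted p of 0.0502, 0.0575 and 0.0645).

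Several secreted proteins were among the concordant genes with the largest falls. Ptn, the growth factor pleiotrophin, had 24.5, 28.2, 29 and 32.4 CPM in MI, against 149, 114, 41.5 and 79.7 CPM in IR, and the 4 MI libraries lay close together while IR ranged widely (log2 -1.77 ± 0.34, edgeR adjusted p = 0.0239). Clec3b, the plasminogen-binding protein tetranectin, had 4.47, 9.76, 11.1 and 9.35 CPM in MI, against 42, 16.2, 22.3 and 19.1 CPM in IR (log2 -1.53 ± 0.36, edgeR adjusted p = 0.0427). Sfrp2, a secreted modulator of Wnt signalling, averaged 59.4 ± 15.2 CPM in MI and 136 ± 50.7 CPM in IR (log2 -1.22 ± 0.27, edgeR adjusted p = 0.0388). Pltp, the phospholipid transfer protein, averaged 37.3 ± 3.1 CPM in MI and 80.1 ± 25.1 CPM in IR (log2 -1.12 ± 0.22, edgeR adjusted p = 0.0195), and Selenop, a selenium transport protein, 295 ± 30.4 CPM in MI and 602 ± 185 CPM in IR (log2 -1.04 ± 0.21, edgeR adjusted p = 0.0208). None of these calls held in all 8 fits with 1 library left out. Clec3b and Selenop were called in 1 of the 8 fits, Ptn and Pltp in 2 and Sfrp2 in 3. The highest edgeR adjusted p was 0.072 for Ptn (without MI replicate 2) and 0.109 for Clec3b (without MI replicate 4). It was 0.111 for Sfrp2 (without IR replicate 1), 0.0665 for Pltp (without IR replicate 1) and 0.0733 for Selenop (without MI replicate 1). With the spread taken from all 16 short-read libraries, edgeR no longer called Sfrp2 (0.0602), the adjusted p in brackets. Calls were also lost for Clec3b, Pltp, Ptn, Selenop and Sfrp2 with no filter on low counts and Clec3b and Sfrp2 with protein-coding genes alone (edgeR adjusted p from 0.0519 to 0.147). Ptn and Clec3b lost the call with a block for replicate number too (edgeR adjusted p of 0.0748 and 0.142).

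Other concordant genes stood out by the size of their test or of their change. Rnf144b, an E3 ubiquitin ligase, had 17.2, 16.7, 18 and 15.5 CPM in MI, against 29.2, 30.1, 27.5 and 28.3 CPM in IR, a log2 fold change of -0.79 ± 0.08 (edgeR adjusted p = 9.91e-05), the smallest adjusted p of the concordant genes. The groups were compact and far apart. Fgd4, an activator of the GTPase Cdc42, changed by -0.60 ± 0.08, and Mxd4, a repressor that pairs with Max, by -0.51 ± 0.08 (edgeR adjusted p of 0.00073 and 0.00238). Cyp27a1, the sterol 27-hydroxylase, averaged 12.7 ± 0.596 CPM in MI and 25.9 ± 7.54 CPM in IR (log2 -1.04 ± 0.17), and Fmo1, a flavin monooxygenase, 12.9 ± 2.48 CPM in MI and 24.5 ± 4.82 CPM in IR (log2 -0.95 ± 0.17), with edgeR adjusted p of 0.00445 and 0.00709. On the higher side, AA467197 had 17.5, 17.2, 14.6 and 15.9 CPM in MI, against 5.14, 4.29, 8.41 and 6.87 CPM in IR (log2 1.38 ± 0.19, edgeR adjusted p = 0.00108). Mall averaged 23.8 ± 3.01 CPM in MI and 12.7 ± 1.53 CPM in IR (log2 0.89 ± 0.12, edgeR adjusted p = 0.00112), and Sh2d5 28.5 ± 4.66 CPM in MI and 10.7 ± 5.57 CPM in IR (log2 1.39 ± 0.33, edgeR adjusted p = 0.048). With each of the 8 libraries left out in turn, edgeR still called Rnf144b, Fgd4, Mxd4, Cyp27a1, Fmo1, AA467197 and Mall. Calls that did not hold in every such fit had a highest edgeR adjusted p that was 0.116 for Sh2d5 (without MI replicate 4). Fitting all 16 short-read libraries in edgeR ended the calls of AA467197 (0.123) and Sh2d5 (0.0769), the adjusted p in brackets. Other settings ended the calls of Sh2d5 with no filter on low counts and Sh2d5 with protein-coding genes alone (edgeR adjusted p from 0.0557 to 0.154). Sh2d5 was also not called with a block for replicate number (edgeR adjusted p = 0.0814).

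Of 19 circadian and glucocorticoid-target genes 4 were concordant and lower in MI and 0 higher, with a median of -0.32, beside -0.17 between the shams. Per3, a period protein of the clock, had 11.3, 10.7, 11.7 and 9.94 CPM in MI, against 21.1, 20.4, 19.5 and 17.3 CPM in IR (log2 -0.86 ± 0.10, edgeR adjusted p = 0.000228). It had 30.2, 28.4, 28.2 and 23 CPM in MISham, against 64.9, 62.8, 50.3 and 58.1 CPM in IRSham (log2 -1.07 ± 0.10, edgeR adjusted p = 7.7e-06), so the libraries were apart in both comparisons. Dbp, a transcription factor that follows the clock, had 3.63, 4.51, 5.77 and 3.99 CPM in MI, against 14.7, 8.05, 8.44 and 6.48 CPM in IR (log2 -1.08 ± 0.24, edgeR adjusted p = 0.0275), with a sham difference of -1.86 ± 0.08 (edgeR adjusted p = 7.72e-09). Nr1d2, the repressor REV-ERBβ, changed by -0.51 ± 0.11 (edgeR adjusted p = 0.0208), and by -0.64 ± 0.08 between the shams (edgeR adjusted p = 0.000268). Tef, a relative of Dbp, was called in counts alone (MI over IR -0.54 ± 0.11, edgeR adjusted p = 0.016; MISham over IRSham -0.60 ± 0.06, edgeR adjusted p = 3.57e-05). Tsc22d3, the glucocorticoid-induced leucine zipper, differed in the injured tissue (-0.70 ± 0.14, edgeR adjusted p = 0.0141), with a sham value of -0.14 ± 0.10 (edgeR adjusted p = 0.574). The labels give no hour of the day for the sampling. Leaving out any 1 of the 8 libraries did not end the count calls of Per3 and Tsc22d3. For the rest, the highest edgeR adjusted p in these fits was 0.105 for Dbp (without MI replicate 4), 0.0809 for Nr1d2 (without MI replicate 1) and 0.0732 for Tef (without MI replicate 4). The threshold was also missed by Dbp with protein-coding genes alone (edgeR adjusted p = 0.0546).

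Dbp and Tef are known to bind the letters TTATGTAA. Among 8 RefSeq windows of the 5 circadian and glucocorticoid-target genes looked up, 3 of them windows of Tsc22d3, 1 held TTATGTAA on either strand, that of Per3, against 0.938% of all 32851 windows. Per3 (chr4:151044616-151044915, minus strand, GRCm38.p6) is shown 5′ to 3′ because it had the lowest adjusted p of the list in MI over IR, with its 2 matches in capitals.
Per3: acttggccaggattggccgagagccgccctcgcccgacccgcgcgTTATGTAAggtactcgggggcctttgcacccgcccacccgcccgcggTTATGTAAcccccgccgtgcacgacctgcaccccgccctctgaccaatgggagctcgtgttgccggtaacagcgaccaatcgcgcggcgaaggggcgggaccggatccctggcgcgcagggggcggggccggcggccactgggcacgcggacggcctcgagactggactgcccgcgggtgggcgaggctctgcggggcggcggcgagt
The matches began at positions 46 and 93 of the window.

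Few heart muscle genes passed the test. Of 20 sarcomere genes 1 was concordant and lower, Nebl, the Z-disc protein nebulette, at 121, 116, 172 and 134 CPM in MI against 262, 184, 191 and 183 CPM in IR (log2 -0.61 ± 0.15, edgeR adjusted p = 0.0357, and 0.125 without MI replicate 1, and 0.0637 with protein-coding genes alone). Ttn, the giant spring protein titin, had 1724 ± 340.4 CPM in MI and 2139 ± 532 CPM in IR (log2 -0.33 ± 0.19, edgeR adjusted p = 0.358), and its groups overlapped. No gene was called among 19 of calcium handling and ion channels (median -0.31), 25 of fatty acid oxidation (-0.27), 24 of the nuclear-encoded respiratory chain (-0.23) and 9 mitochondrially encoded mRNAs (-0.09). The sham medians of the last 3 lists were positive, at 0.23, 0.19 and 0.25. None of 16 cardiac stress and fetal genes was called either; Nppb, the B-type natriuretic peptide, had 555, 448, 696 and 685 CPM in MI, against 292, 415, 397 and 476 CPM in IR (log2 0.57 ± 0.17, edgeR adjusted p = 0.0885). All 26 cell cycle genes had positive values with a median of 0.25, and 0 passed the test. Their sums overlapped, at 1480 to 1968 CPM in MI and 1158 to 1592 CPM in IR.

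**Figure D3:**
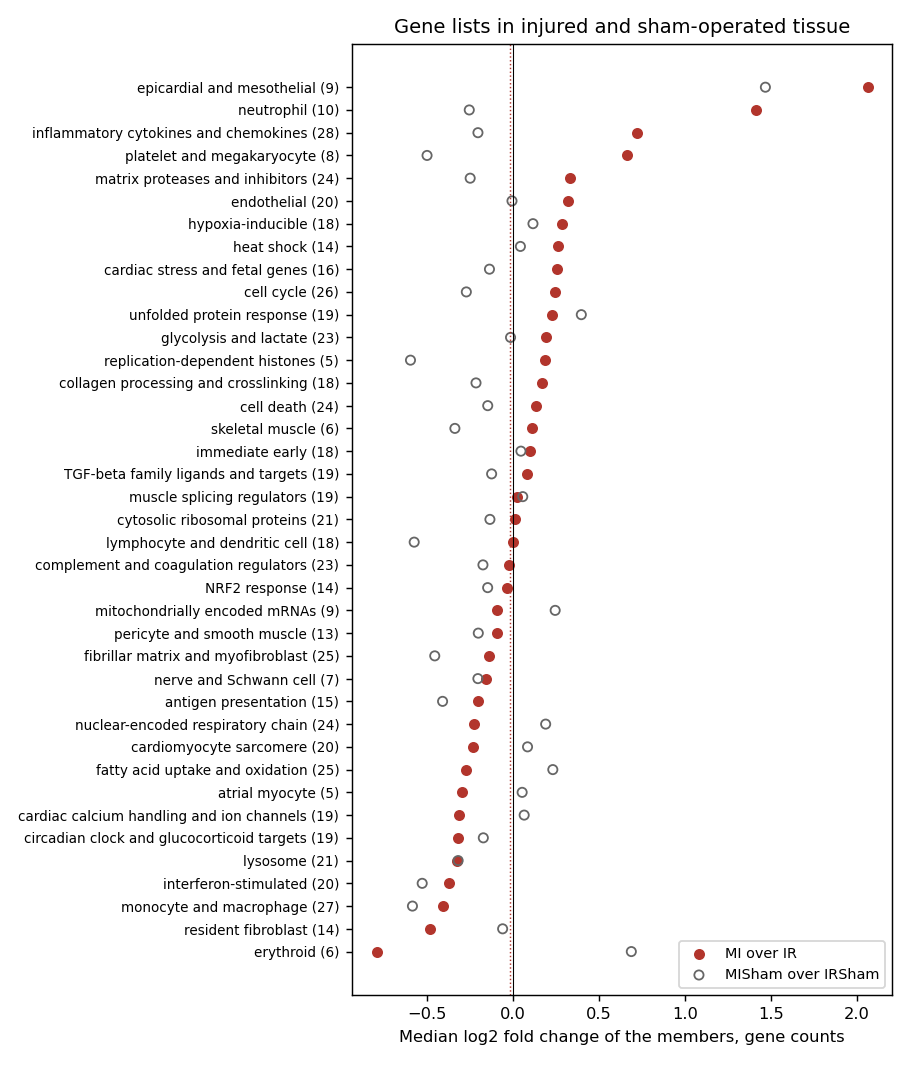
Median log2 fold change in gene counts over the members of each gene list with at least 5 tested members (number in brackets). Filled red circles show MI over IR, open circles MISham over IRSham, and the dotted line is the median of all 14531 protein-coding genes in MI over IR. Resident fibroblast genes lie at -0.48 in the injured and -0.06 in the sham comparison, and neutrophil genes at 1.41 and -0.25.

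Markers of cells or tissue that could have been taken along were counted in the same way. Epicardial and mesothelial genes had a median of 2.06 over 9 tested genes, and 1.47 between the shams. They summed to 119.6 to 181 CPM in MI and 115 to 176 CPM in IR, so the sums overlapped. One of them, Krt19, an epithelial and mesothelial keratin, was concordant and higher at 3.91, 2.09, 2.61 and 8.03 CPM in MI against 0.775, 0.501, 1.42 and 1.22 CPM in IR (log2 2.06 ± 0.47, edgeR adjusted p = 0.0327, and 0.107 without IR replicate 1, and 0.0718 with all 16 short-read libraries). The 9 platelet genes summed to 207 to 257 CPM in MI and 137 to 186 CPM in IR, and none of the 8 tested was called. Erythroid genes summed to 185 to 563 CPM in MI and 238 to 1332 CPM in IR, and lung and airway genes to 2.2 to 3.72 CPM in MI and 2.42 to 3.54 CPM in IR, with 2 of the 8 lung genes at 0 in all 8 libraries. Among the remaining lists, P4ha1 was the 1 concordant gene of 18 for collagen processing, and 0 were concordant among 18 lymphocyte and dendritic cell, 15 antigen presentation, 14 NRF2 response, 13 pericyte and smooth muscle, 18 immediate early, 21 ribosomal protein, 19 muscle splicing regulator and 21 lysosome genes. Adipocyte, atrial, skeletal muscle, histone and sex-linked lists, with 2 to 6 tested genes each, also held none. Cdh19, a cadherin of Schwann cells, was the 1 concordant gene among 7 nerve genes (log2 -0.86 ± 0.14, edgeR adjusted p = 0.00374) and held in every leave-out fit. The part of these cells in the results above was not tested.

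The sham comparison shares no library with MI against IR, and it differs in region and series in the same way. Between MISham and IRSham, edgeR called 448 of 17488 genes higher in counts (2.56%) and 122 lower (0.698%), and limma called 1 of 13406 higher in summed TPM (0.00746%) and 4 lower (0.0298%). Among 13753 protein-coding genes, 125 were higher in counts (0.909%) and 109 lower (0.793%). By the concordant rule 42 were higher (0.305%) and 49 lower (0.356%), and 0 were higher (0.0%) and 2 lower (0.0145%) in both fits, Dbp and Acta2. All 344 genes concordant in MI over IR were tested in the shams. Of these, 10 were called there in counts: 4 higher in both (Creld2, Hyou1, Manf and Nfil3), 5 lower in both (Dbp, Per3, Nr1d2, Thbs2 and Hfe) and 1, Pnrc1, lower in MI and higher in MISham. The sham log2 difference was under 0.25 in size for 157 of the 212 higher genes and 99 of the 132 lower ones. Among all protein-coding count calls, concordant or not, 29 of the 351 higher and 31 of the 309 lower genes were also called with the same sign between the shams. A sham difference that was not called does not show that the sham groups were alike.

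**Figure D4:**
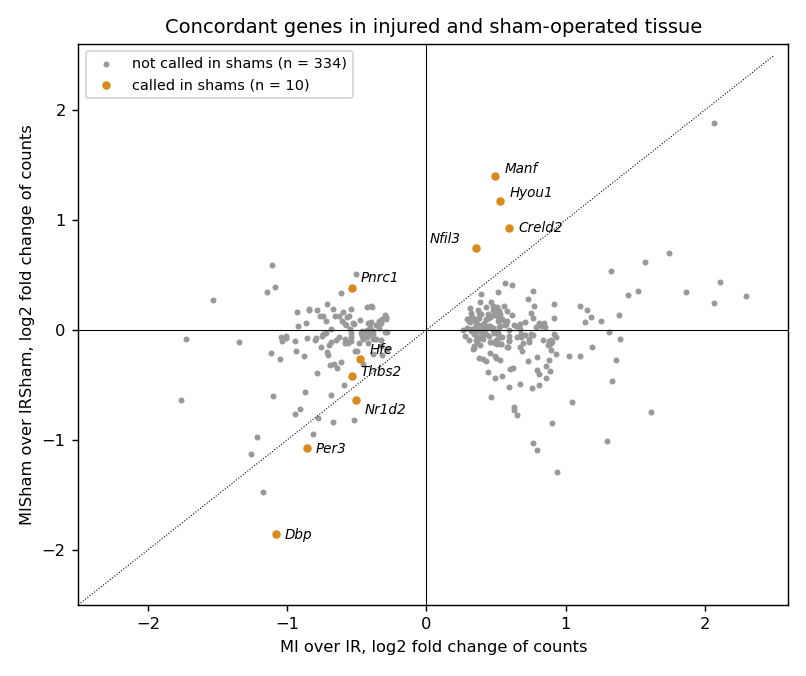
Log2 fold change of counts of the 344 concordant genes in MI over IR (horizontal axis) and in MISham over IRSham (vertical axis), 1 point per gene. Orange points are the 10 genes called between the shams, grey points the others, and the dotted line marks equal values. Per3 lies at -0.86 and -1.07, and Creld2 at 0.60 and 0.93.

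Some of the largest count differences did not appear in TPM. Gapdh, a glycolytic enzyme, had 87.3, 73.1, 98.8 and 83 CPM in MI, against 1973, 1745, 1852 and 1796 CPM in IR, a log2 fold change of -4.44 ± 0.12 (edgeR adjusted p = 7.98e-09), while its summed TPM changed by 0.07. Its count difference between the shams was as large, at -4.65 ± 0.17. Hnrnpa3, an RNA-binding protein, changed by -1.78 ± 0.09 in counts, 0.51 in TPM and -1.53 ± 0.08 in sham counts. Nutf2-ps1 and Gm12184 were higher in MI in counts (3.79 ± 0.30 and 3.30 ± 0.31) and also in MISham (3.67 ± 0.39 and 2.78 ± 0.25), with TPM changes of -0.06 and -0.18. H2-Q6, a class Ib histocompatibility gene with close copies, changed by -2.02 ± 0.30 in counts, 0.01 in TPM and -2.02 ± 0.32 in sham counts. All 5 calls held in counts whichever 1 library was left out. Annotated pseudogenes went the same way: 432 of 1128 were called higher in MI and 14 lower, and 288 of the 432 were also called higher in MISham. Processed pseudogenes took 0.497 ± 0.0262% of counts in MI and 0.148 ± 0.0374% in IR (SD, n = 4 each). A two-sided exact permutation test gave p = 0.0286, the smallest possible, and an adjusted p of 0.0571 over 6 measures. The shams differed likewise, at 0.45 ± 0.0377% in MISham and 0.113 ± 0.0279% in IRSham. In TPM the order was the other way, at 3.61 ± 0.325% in MI and 4.02 ± 0.768% in IR. Processed pseudogenes resemble their parent genes closely in sequence; how the counting divided reads between copies was not tested, and these counts are reported as uncertain.

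The series title concerns alternative splicing, so each transcript's share of the summed TPM of its gene was compared as well. Among 7932 genes, 14 had a transcript whose share differed by at least 10 percentage points at a limma adjusted p under 0.05 (0.177%), beside 2418 transcripts at an unadjusted p under 0.05. They held 22 called transcripts, 11 higher and 11 lower in MI. In 8 genes 1 transcript was higher and another lower, and in 8 of 8 the longer of the pair was the one higher in MI. The direction by length was not counted over all tested genes, so there is no share to set beside this. The count of genes depended on single libraries: it was 43 without IR replicate 1 and at most 6 without any other, with 1 gene left without MI replicate 2 or MI replicate 4.

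Tnnt2 encodes cardiac troponin T, the tropomyosin-binding subunit of the thin filament. Tnnt2-211, of 1112 bases, held 74.2, 77.9, 73.4 and 74.2% of the gene's TPM in MI, against 42.8, 23.3, 23.5 and 17.7% in IR, a difference of 48.1 ± 5.0 points (SE; limma adjusted p = 0.0286). Tnnt2-201, of 1064 bases, was listed at or next to 0% in each MI library, against 30.4, 44.1, 44.8 and 48.5% in IR (-41.9 ± 3.7 points, limma adjusted p = 0.0173). The sham means of Tnnt2-201 were 45 ± 7.35% in MISham and 40.4 ± 13.4% in IRSham. MI thus stood apart from all 3 other groups in this share. MI libraries also held 57.2 to 63.1 M counts, against 24.3 to 31.8 M in the other groups. Transcript shares were not tested at equal depth, for this gene or the others. In gene counts Tnnt2 did not pass (log2 -0.31 ± 0.20, edgeR adjusted p = 0.415), nor in summed TPM (log2 -0.35, limma adjusted p = 0.491).

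Other muscle and immune genes showed the same kind of exchange. For Myl2, the ventricular myosin light chain, Myl2-201 held 93.9, 86.1, 90.6 and 95.3% in MI, against 65.8, 69, 61.6 and 63.5% in IR, and Myl2-212 held 1.27, 8.76, 3.98 and 0.292% in MI, against 27.2, 25.7, 34.8 and 31.1% in IR. Their differences were 26.5 ± 2.7 and -26.1 ± 2.8 points (limma adjusted p of 0.0243 and 0.0286). For Anxa7, a calcium-dependent membrane-binding annexin, Anxa7-201 averaged 65.4 ± 4.23% in MI and 30.7 ± 2.98% in IR, and Anxa7-207 0.0691 ± 0.138% in MI and 34.8 ± 6.21% in IR. Ubl7-209, of the ubiquitin-like protein gene Ubl7, had the lowest adjusted p, at 1.62 ± 2.46% in MI and 48.6 ± 4.47% in IR (limma adjusted p = 0.00217). For F13a1, the clotting factor XIII subunit that macrophages also make, F13a1-201 averaged 83.9 ± 9.11% in MI and 34 ± 10.4% in IR, and F13a1-202 11.8 ± 8.77% in MI and 63.3 ± 10.3% in IR. Gpx4, a lipid peroxidase of ferroptosis defence, Sarnp and Ly6c1 completed the 8 pairs. Mb, Sec11a, Mydgf, Ccr2, Rhoc and Fau had 1 called transcript each. Some of these shares varied widely among sham libraries of the same group. Ubl7-209 ran from 0.0208 to 55% in IRSham and from 0.153 to 49.6% in MISham. In IRSham, Anxa7-207 ran from 0 to 33.6% and F13a1-202 from 0.00567 to 62.9%. Myl2-212 varied less there, from 21 to 31.4%. The transcripts of a pair differed in length by as little as 6 bases (Ly6c1) and as much as 491 (Sarnp), and how reads were split between them was not tested against other evidence.

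**Figure D5:**
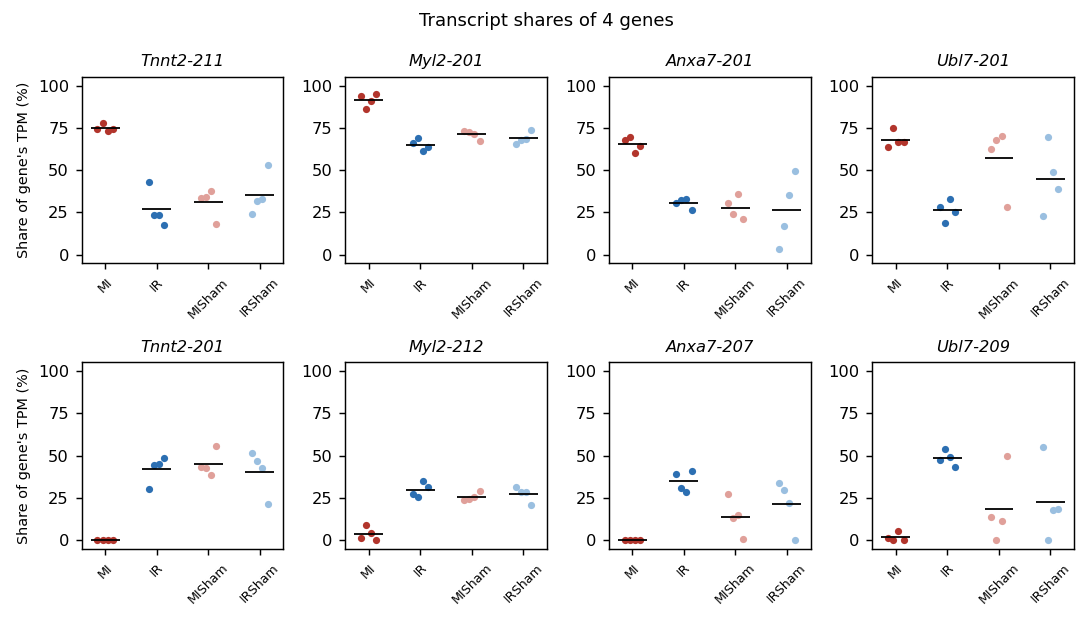
Share of the gene's summed TPM in percent held by 2 transcripts each of Tnnt2, Myl2, Anxa7 and Ubl7, 1 column per gene, in the 4 MI, 4 IR, 4 MISham and 4 IRSham libraries. Points are libraries and black lines group means. In each gene the transcript in the top row is higher in MI than in IR and the one below it lower.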

How the data were processed

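Poly(A) RNA of 16 short-read libraries (4 each of MI, IR, MISham and IRSham) was used. The authors deposited raw gene counts, whole numbers without normalization, and transcript TPM, scaled to a fixed sum. GRCm39, kallisto 0.50.1, featureCounts 2.0.1, SAMtools 1.7 and HISAT2 2.2.1 are named in the submitters' processing notes. Their roles, the strand setting and the annotation release are not given in the sources used here; reads of genes overlapping on opposite strands therefore cannot be told apart. In every library more genes had a count of 2 than a count of 1. Symbols and gene types come from GENCODE M21 (GRCm38), matched by ID, so no gene coordinates are given. Of 163740 transcripts listed, 138330 matched a gene there, and only these entered summed TPM and transcript shares. They held 73.8 to 78.4% of TPM in the MI and IR libraries and 68.1 to 70.2% in the sham libraries. The 4 long-read libraries were not analysed here, nor were the deposited estimated counts and effective lengths, which name no library.

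Counts were tested with edgeR 4.0.16 in R 4.3.3 (TMM, filterByExpr with a minimum count of 10 and total of 15, robust quasi-likelihood test). Summed TPM was tested with limma 3.58.1 (trend, robust) on log2(TPM + 1) for genes with a mean of at least 1, a scale that understates the change of low genes. Transcript shares were tested with limma in genes whose summed TPM averaged 5 or more and that had 2 or more transcripts averaging 5% or more. Each fit used only the 8 libraries compared, and p-values were adjusted over all features tested (Benjamini-Hochberg, called under 0.05). Printed CPM share 1 TMM scale over 16 libraries. SEs of count changes were derived from the test statistic. For 6 library measures, two-sided exact permutation tests were used; their smallest p is 0.0286. Scripts were tested on simulated data.

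Named genes were to be called in both fits, with a mean CPM of at least 5 and libraries apart: 12 by change and 6 by adjusted p in each direction, 4 by adjusted p in each of 42 lists, and 6, 4 and 4 by their sham or TPM behaviour. Since 2 genes met both fits, the same steps were applied to concordant genes, a rule chosen after the data were seen, and Flt4, Nos3, Hilpda and Stc1 were named after their values were seen. The comparison and the gene lists were chosen with earlier results of these data known. DESeq2 1.42.0, other scalings and filters, thinned MI counts, a replicate block and leaving out each library served as alternatives.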

Additional observations from a re-analysis of the deposited data

Results flagged for a closer look

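In 14 of 200 sets of 4 libraries, 1 library lay far from the other 3: its gap to the nearest, as a share of the range, was above Dixon's 95% critical value, which chance alone exceeds in about 1 of 20 sets. Among MI libraries, on the log2(CPM + 0.5) scale, this was so for Esm1 (0.917, MI replicate 1 high), Slc2a1 (0.892, MI replicate 2 low), Hif1a (0.916, MI replicate 3 high), Adamts4 (0.865, MI replicate 2 low) and Olr1 (0.855, MI replicate 4 high). It was also so for Cxcr2 (0.834, MI replicate 3 high), Mall (0.846, MI replicate 3 low), Entpd2 (0.920, MI replicate 1 low) and Tef (0.833, MI replicate 3 high). Among IR libraries it was so for C5ar1 (0.963, IR replicate 1 low), Tsc22d3 (0.906, IR replicate 2 high), Nebl (0.882, IR replicate 1 high), Acta2 (0.997, IR replicate 3 high) and the protein-coding share of counts (0.842, IR replicate 2 high).

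Acta2, smooth muscle actin, lay on opposite sides in injured and sham tissue. It had 398, 389, 373 and 377 CPM in MI, against 289, 289, 347 and 289 CPM in IR, where all MI libraries were higher without passing the test (log2 0.32 ± 0.08, edgeR adjusted p = 0.0506). It had 90.9, 47.8, 77.8 and 77.9 CPM in MISham, against 224, 356, 329 and 528 CPM in IRSham, where all MISham libraries were lower (log2 -2.26 ± 0.32, edgeR adjusted p = 0.0125). The log2 values differ by 2.58, and this difference was not tested.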

How the results depend on the processing

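With 1 library left out, the calls in counts ran from 494 to 1265 higher and from 104 to 848 lower, those in TPM from 2 to 92 and from 2 to 60, those in both fits from 0 to 65 and from 0 to 48, and concordant genes from 64 to 458 and from 53 to 421. Testing protein-coding genes only gave 220 higher and 176 lower in counts, and 136 concordant genes higher and 92 lower. DESeq2 gave 1307 higher, 799 lower, 340 concordant higher and 1 higher in both fits. No filter on low TPM gave 3 higher and 4 lower in TPM and 1 lower in both fits; median-ratio scaling of TPM gave 3 higher and 4 lower in both. With all 16 libraries in the TPM fit, 104 were higher and 64 lower in TPM, and 63 and 45 in both fits; with all 16 libraries in both fits, a choice made after seeing the data, 69 and 48. Between MISham and IRSham, genes higher in both fits were 5 and lower 7 with 16 libraries in TPM, and 5 and 6 with 16 libraries in both fits; lower in both was 1 without a TPM filter or with median-ratio scaling. Leaving out 1 sham library gave 0 to 6 higher and 1 to 4 lower in both fits, and 31 to 67 and 29 to 110 concordant genes. Sham concordant genes were 18 higher with 16 libraries in counts (18 also with 16 in both), and lower ones 20 with protein-coding genes only, 85 without a count filter and 80 with DESeq2. Genes with a called transcript share ran from 1 to 43 with 1 library left out. The MI minus IR difference in mitochondrial share, -0.171 percentage points, ran from -0.394 to 0.0526 and changed sign without MI replicate 2, IR replicate 1 or IR replicate 3. The TPM change of H2-Q6 was -0.0191 with median-ratio scaling and ran from -0.23 to 0.16 with 1 library left out; that of Nutf2-ps1 ran from -0.37 to 0.43. The causes were not tested. Thinning MI to the depth of IR gave 800 higher and 317 lower in counts, and no scaling moved the median log2 change of all genes between MI and IR by 0.1. Of 94 genes checked in counts, none changed direction; 28 lost a call with protein-coding genes only, 26 without a count filter and 22 with 16 libraries.

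The labels do not tell whether the replicate numbers pair the MI and IR libraries. Deviations from the group means of same-numbered MI and IR libraries correlated at -0.196, 0.273, 0.319 and -0.00155. MI replicates 2 and 3 correlated best with the IR library of their own number, and MI replicates 1 and 4 did not. These correlations cannot settle whether libraries were paired. With the replicate block, genes called in both fits were 3 higher with the block in TPM and 6 with it in both fits, and genes with a called transcript share were 5; of the 94 genes, 13 lost and 3 gained a call with the block in counts. Between the shams the replicate block gave 1 gene lower in both fits with the block in counts, 0 with it in TPM and 0 with it in both, and 23 concordant genes lower with it in counts or in both.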
